A study of Mus musculus with 6 samples.

Results

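Cytochrome P450 genes outside family 4 were followed in mouse kidneys with chronic cisplatin injury and in control kidneys. The members were the protein-coding genes whose symbol has the form of a Cyp family number, subfamily letter and gene number, without the Cyp4 genes and without Cyp24a1 and Cyp27b1, the pair of vitamin D enzymes. This rule used names and no measured value, and it gave 77 genes of the 56691 genes in the count files, all 77 of them with a record in GENCODE vM39. Of 99 P450 genes with a symbol of this form, 20 Cyp4 genes were left out. The cisplatin group held 3 libraries from male C57BL/6 mice that had received 8 mg cisplatin per kg body weight by intraperitoneal injection in each of 4 weekly injections, and the control group held 3 libraries from male C57BL/6 mice injected with saline at the same times. All mice were 9 weeks old at the start, and the kidneys were taken at week 7. Total RNA of the kidney was sequenced with a stranded library kit. The study calls the 3 samples of each group biological replicates; the labels do not say that each came from a separate mouse, so p-values measure the spread between these samples.

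P450 enzymes are heme-containing monooxygenases that insert an oxygen atom from molecular oxygen into lipids, steroids, vitamins, drugs and other foreign compounds. Those of the endoplasmic reticulum take electrons from NADPH through P450 oxidoreductase (Por), and those of mitochondria through ferredoxin reductase (Fdxr) and ferredoxin (Fdx1). In the rodent kidney most P450 protein lies in the proximal tubule, where Cyp2e1 oxidises ethanol and other small molecules and where Cyp2j and Cyp2c enzymes turn arachidonic acid into epoxides that act on vessels and on salt transport. Several P450 genes of the mouse kidney are known to stand higher in males than in females, among them Cyp2e1, Cyp2j13 and Cyp7b1.

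Each library held 21891855 to 26627554 counted read pairs. Levels are given as CPM, counts relative to the library size, scaled with TMM factors of 1.05 to 1.26 in the cisplatin libraries and of 0.844 to 0.894 in the control libraries. The cisplatin libraries differed more among themselves than the control libraries did, the chi-square statistic of their counts being 13.5 to 40.9 per gene in the cisplatin group and 4.70 to 6.87 per gene in the control group. Markers of the kidney were present in every library: all 15 proximal tubule markers were tested, of which 14 were lower in cisplatin kidneys, and their summed level was 6294 to 6422 CPM in cisplatin kidneys and 13796 to 15880 CPM in control kidneys. All 8 markers of injured tubule were higher, with Havcr1 (kidney injury molecule) at 100, 102 and 113 CPM in cisplatin kidneys, against 0.883, 0.779 and 1.39 CPM in control kidneys. In control libraries Krt20 had 2, 5 and 4 counts and Sox9 had 5 counts in each, below the minimum count of 10. Both were kept for the test only through the cisplatin libraries, so that a difference was built in. Distal nephron and collecting duct markers were split, with 6 of 10 higher and 2 lower, and of 5 podocyte markers 1 was higher and 0 lower. In whole tissue, fewer cells of a type and less RNA per cell cannot be told apart.

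Of the 77 genes, 31 had enough counts to be tested and 22 of these passed the test at an adjusted p under 0.05. The 10 that rose in cisplatin kidneys made up 32.3% of the tested genes, where 24.5% of all 15662 tested genes were called higher, and the 12 that fell made up 38.7%, where 22.8% of all tested genes were called lower. Differences of 2-fold or more were found for 6 of the genes that rose and for 10 of the genes that fell, which is 19.4% and 32.3% of the tested P450 genes, where 9.78% of all tested genes rose and 5.64% fell by as much. The median log2 fold change was -0.12 over the tested P450 genes and 0.05 over all tested genes. The P450 median changed sign with library totals (0.31), where the median of all tested genes was 0.48. It also changed sign with no filter on low counts (0.13), where 53 P450 genes were tested. The cisplatin libraries and the control libraries did not overlap in 24 of the 31 genes, where 57.8% of all tested genes showed no overlap. Cyp2c68, Cyp26a1, Cyp3a13 and Cyp2j8 passed the filter on low counts only through the cisplatin libraries and Cyp2b10 only through the control libraries, so that a difference was built into how these 5 were kept. Of the other 26 tested genes, 7 were called higher, 11 lower and 8 in neither direction, and 3 (11.5%) rose and 9 (34.6%) fell by 2-fold or more.

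**Figure D1:**
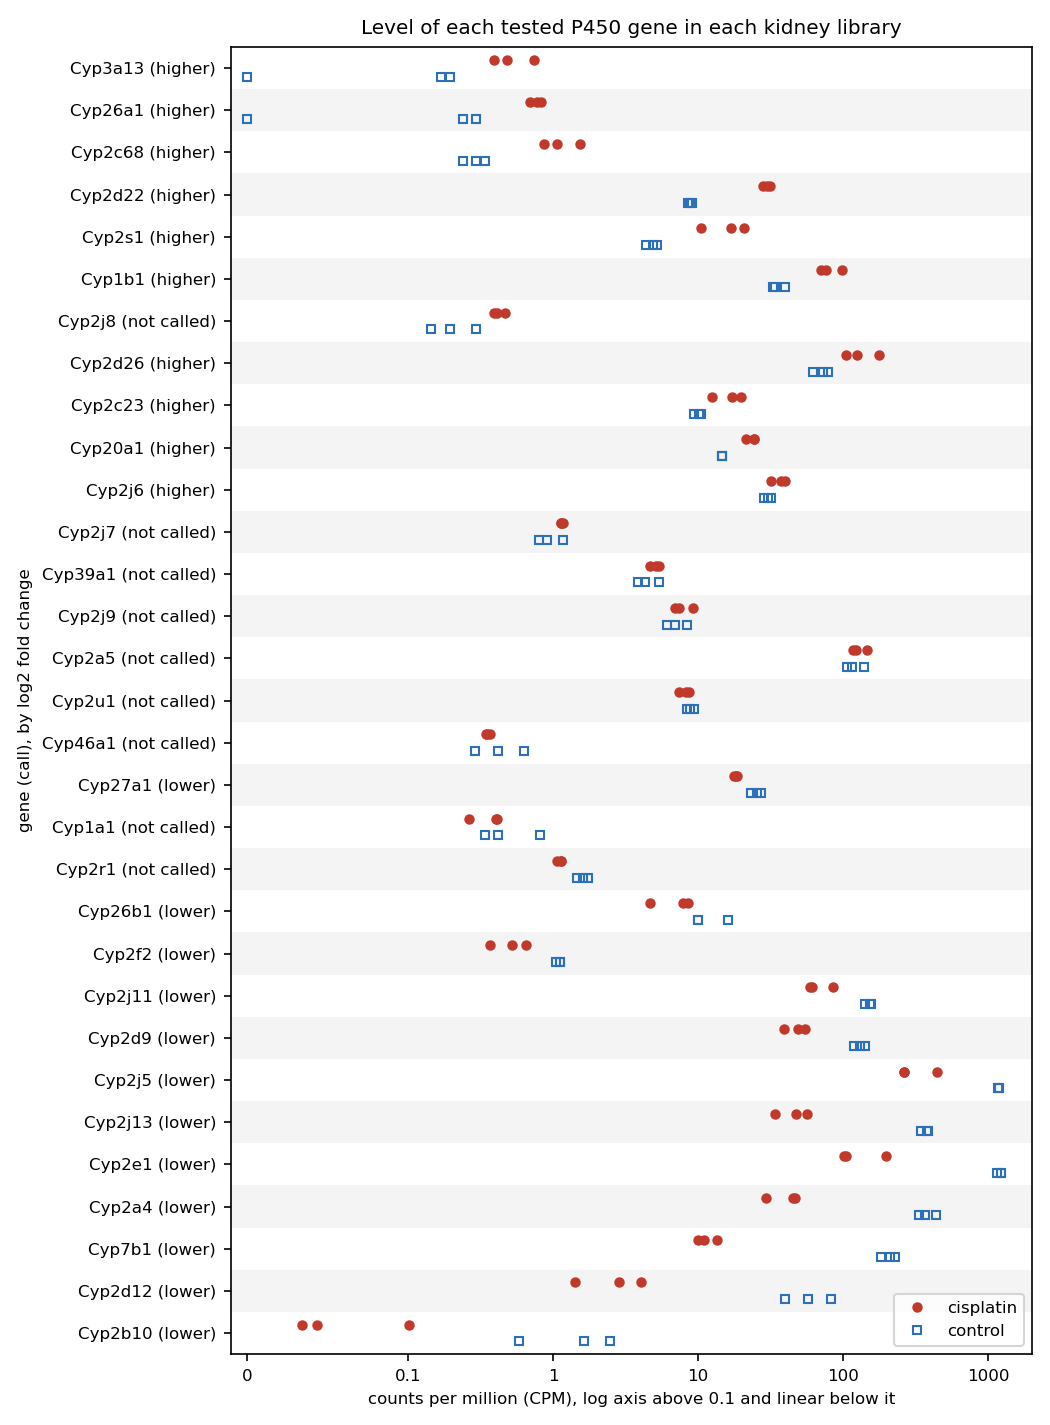
Level of each of the 31 tested P450 genes in CPM (horizontal axis, logarithmic above 0.1 and linear below), with the 3 cisplatin libraries as filled circles above the 3 control libraries as open squares in each row, from the largest rise (top) to the largest fall (bottom) in fitted log2 fold change. Cyp2e1 and Cyp2j5 stand at 101 to 441 CPM in cisplatin libraries and at 1142 to 1221 CPM in control libraries, and the circles and squares of the 22 called genes do not overlap.

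The summed level of all 77 genes was 1029, 1084 and 1467 CPM in cisplatin kidneys, against 3861, 4140 and 4081 CPM in control kidneys. The means were 1193 ± 238 CPM in cisplatin kidneys and 4027 ± 147 CPM in control kidneys (SD, n = 3 each), a ratio of 0.296. The third cisplatin library stood nearest to the control libraries. Cyp2e1 and Cyp2j5 together supplied 35.3%, 33.9% and 43.5% of this sum in cisplatin kidneys, against 60.4%, 58.1% and 58.5% in control kidneys. Without them the other 75 genes summed to 737 ± 83.5 CPM in cisplatin kidneys and 1652 ± 108 CPM in control kidneys (SD, n = 3 each). The 12 genes called lower summed to 699 ± 198 CPM in cisplatin kidneys and 3708 ± 130 CPM in control kidneys, and the 10 genes called higher to 341 ± 27.0 CPM in cisplatin kidneys and 175 ± 7.54 CPM in control kidneys, values that the calls themselves fix in direction.

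**Figure D2:**
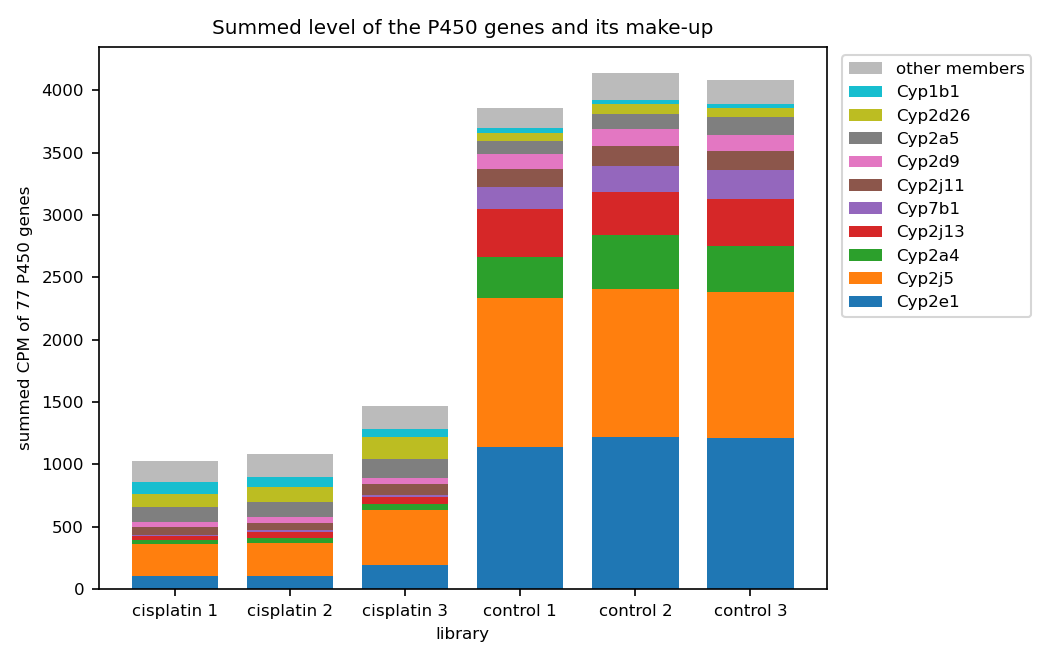
Summed CPM of the 77 P450 genes (vertical axis, from 0) in each of the 6 libraries, stacked by gene for 10 genes and for all other members together. The bars reach 1029 to 1467 CPM in cisplatin libraries and 3861 to 4140 CPM in control libraries, and the Cyp2e1 and Cyp2j5 segments make up 37.5% of the sum in cisplatin libraries and 59.0% in control libraries on average.

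Set beside the 15 proximal tubule markers, the sum over all P450 genes was 16.0%, 16.9% and 23.3% of the marker sum in cisplatin kidneys, against 26.8%, 26.1% and 29.6% in control kidneys, with no overlap. Without Cyp2e1 and Cyp2j5 the sum was 10.4%, 11.2% and 13.2% of the marker sum in cisplatin kidneys, against 10.6%, 10.9% and 12.3% in control kidneys, and the groups overlapped. The part that the lower tubule markers have in the lower P450 levels was not tested. Per kilobase of transcript, the highest levels in cisplatin kidneys were those of Cyp2j5 (121 CPM per kb), Cyp2d26 (79.3), Cyp2e1 (63.6) and Cyp2a5 (63.2), and in control kidneys those of Cyp2e1 (566 CPM per kb), Cyp2j5 (444), Cyp2a4 (217) and Cyp2j13 (83.2). Cyp2d26 supplied 11.2% of the sum in cisplatin kidneys and 1.75% in control kidneys, and Cyp2a5 supplied 10.9% in cisplatin kidneys and 2.97% in control kidneys.

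Among the genes that fell, 5 carried the hexamer AGGTCA, to which many nuclear receptors bind, within 250 bases before and 50 bases after the start of the annotated transcript. The promoters of the 4 with the largest fall among them are shown here because they include the most abundant P450 genes and some of the largest falls of the comparison. They were read from the GRCm39 genome, 5′ to 3′ on the strand of the gene, and capitals mark AGGTCA or its reverse complement. The windows are chr7:140343402-140343701 (plus strand) for Cyp2e1, chr4:96552402-96552701 (minus strand) for Cyp2j5, chr15:82438996-82439295 (plus strand) for Cyp2d12 and chr3:18297691-18297990 (minus strand) for Cyp7b1.
Cyp2e1: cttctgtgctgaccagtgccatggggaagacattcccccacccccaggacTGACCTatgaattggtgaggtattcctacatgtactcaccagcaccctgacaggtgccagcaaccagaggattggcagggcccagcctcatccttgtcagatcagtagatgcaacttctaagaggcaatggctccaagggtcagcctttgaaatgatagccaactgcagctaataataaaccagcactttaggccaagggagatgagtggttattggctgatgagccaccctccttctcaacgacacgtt
Cyp2j5: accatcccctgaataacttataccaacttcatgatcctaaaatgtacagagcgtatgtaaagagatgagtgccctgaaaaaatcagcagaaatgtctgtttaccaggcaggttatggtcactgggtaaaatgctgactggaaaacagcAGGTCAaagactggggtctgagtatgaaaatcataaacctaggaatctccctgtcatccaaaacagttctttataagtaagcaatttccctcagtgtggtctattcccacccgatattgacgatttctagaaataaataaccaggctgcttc
Cyp2d12: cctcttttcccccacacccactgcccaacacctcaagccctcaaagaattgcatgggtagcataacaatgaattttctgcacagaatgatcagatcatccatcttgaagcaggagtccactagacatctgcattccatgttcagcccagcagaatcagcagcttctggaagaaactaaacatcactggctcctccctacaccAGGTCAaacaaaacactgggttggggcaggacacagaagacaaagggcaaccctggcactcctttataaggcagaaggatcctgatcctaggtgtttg
Cyp7b1: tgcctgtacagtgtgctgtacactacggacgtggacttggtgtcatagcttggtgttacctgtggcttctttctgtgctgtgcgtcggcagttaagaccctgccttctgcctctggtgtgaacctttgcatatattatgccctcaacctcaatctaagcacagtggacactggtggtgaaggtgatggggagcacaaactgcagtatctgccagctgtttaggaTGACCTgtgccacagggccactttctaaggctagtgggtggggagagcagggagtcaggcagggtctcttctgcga
The hexamer was present in 15.1% of 21770 protein-coding promoters of the same length. Besides these 4 and Cyp2f2, it was found in the promoter of Cyp2s1, 1 of the 10 genes that rose, and of Cyp2u1, 1 of the 9 tested genes called in neither direction. A match of letters is a description and not a binding site.

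Cyp2e1, which oxidises ethanol, acetone and paracetamol, had 101, 104 and 196 CPM in cisplatin kidneys, against 1142, 1221 and 1215 CPM in control kidneys. The highest cisplatin library thus lay far below the lowest control library. Cyp2e1 fell by 3.16 on the log2 scale (SE 0.235, adjusted p = 2.6e-06), or 8.92-fold. It lies on chromosome 7 from 140343652 to 140355167 (GRCm39), apart from the other Cyp2 genes of that chromosome.

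The Cyp2j genes, whose best known products are epoxides of arachidonic acid, lie side by side on chromosome 4 between 95915771 and 96552451. Of 8 genes, 7 were tested, of which 3 fell, 1 rose and 3 were called in neither direction, and their summed level was 398, 418 and 632 CPM in cisplatin kidneys, against 1748, 1722 and 1745 CPM in control kidneys. Cyp2j5, an arachidonic acid epoxygenase of the proximal tubule, had 262, 263 and 441 CPM in cisplatin kidneys, against 1190, 1186 and 1171 CPM in control kidneys. The groups were far apart, and the fall was 1.88 on the log2 scale (a log2 fold change of -1.88, SE 0.188, adjusted p = 1.9e-05). Cyp2j13, another gene with higher levels in male kidney, had 34.1, 46.9 and 56.4 CPM in cisplatin kidneys, against 381, 342 and 379 CPM in control kidneys. Its log2 fold change was -3.01 (SE 0.165, adjusted p = 3.1e-07), with no overlap. Cyp2j11 had 59.1, 61.3 and 85.5 CPM in cisplatin kidneys, against 141, 156 and 154 CPM in control kidneys. Its groups did not overlap either, and its log2 fold change was -1.13 (SE 0.135, adjusted p = 6.6e-05).

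None of the other Cyp2j genes was called lower. Cyp2j6 had 32.0, 37.4 and 39.8 CPM in cisplatin kidneys, against 28.3, 30.2 and 31.6 CPM in control kidneys. The lowest cisplatin library was just above the highest control library, and Cyp2j6 was called higher with a log2 fold change of 0.28 (SE 0.10, adjusted p = 0.0413). This call was lost in 8 of 15 alternatives, among them DESeq2 (adjusted p = 0.106) and 5 of the 6 fits without 1 library (adjusted p of 0.0779 to 0.166). Cyp2j9, which hydroxylates arachidonic acid, had 6.97 to 9.16 CPM in cisplatin kidneys and 6.14 to 8.37 CPM in control kidneys, and the groups overlapped (log2 fold change 0.13, SE 0.153, adjusted p = 0.493). Cyp2j7 was near 1 CPM in every library, at 1.13 to 1.17 CPM in cisplatin kidneys and 0.799 to 1.17 CPM in control kidneys (log2 fold change 0.26, SE 0.237, adjusted p = 0.380). Cyp2j8 had 9 to 14 counts in cisplatin libraries and 3 to 7 counts in control libraries and missed the threshold (log2 fold change 0.98, SE 0.388, adjusted p = 0.0594), although its groups did not overlap. Cyp2j12 had 0 counts in all 6 libraries.

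**Figure D3:**
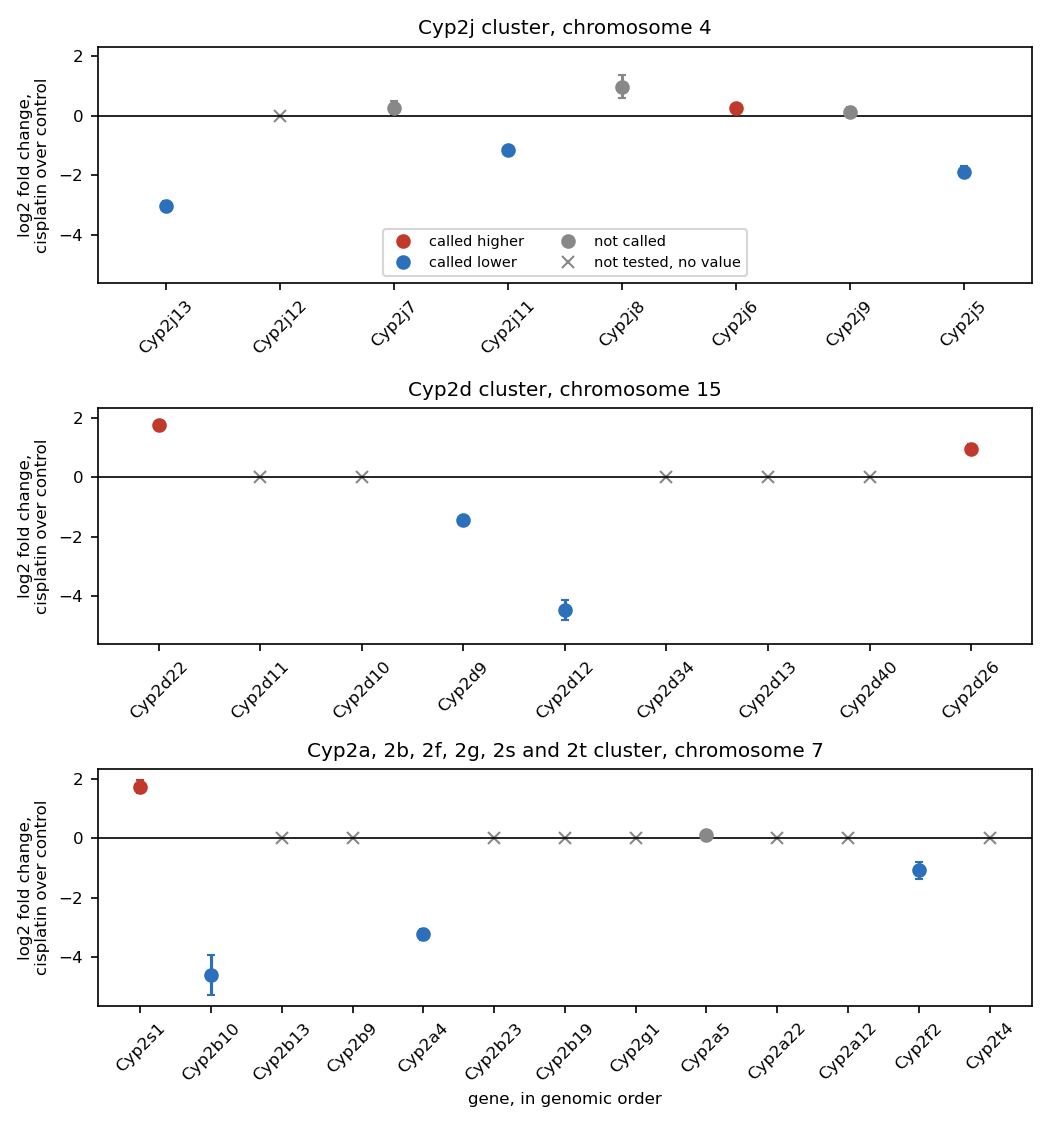
Log2 fold change of cisplatin over control (vertical axis, bars are standard errors) for the genes of 3 P450 gene clusters in genomic order (horizontal axis), coloured by call, with crosses on the 0 line for genes that were not tested and have no value. Each of the 3 clusters holds genes called lower and genes that were not, with values from Cyp2j13 (-3.01) to Cyp2j8 (0.98) on chromosome 4, from Cyp2d12 (-4.46) to Cyp2d22 (1.76) on chromosome 15 and from Cyp2b10 (-4.59) to Cyp2s1 (1.73) on chromosome 7. Cyp2j8 and Cyp2b10 passed the filter on low counts only through the group in which they were higher.

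The Cyp2d genes, relatives of the main drug-oxidising CYP2D enzyme of human liver, lie on chromosome 15 between 82254727 and 82678509. All 4 tested genes of the 9 passed the test, 2 in each direction, and the summed level of the subfamily was 177, 207 and 263 CPM in cisplatin kidneys, against 229, 312 and 269 CPM in control kidneys, with overlap. Cyp2d12 had 2.86, 1.41 and 4.06 CPM in cisplatin kidneys, against 39.9, 82.4 and 57.6 CPM in control kidneys. Its groups were far apart, and its log2 fold change of -4.46 (SE 0.336, adjusted p = 2.9e-06) made it 22.1-fold lower. Cyp2d9, a testosterone hydroxylase with higher levels in male than in female mouse liver, had 39.0, 49.1 and 54.7 CPM in cisplatin kidneys, against 119, 141 and 131 CPM in control kidneys. Its log2 fold change was -1.45 (SE 0.126, adjusted p = 7.7e-06), with no overlap.

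Cyp2d26 and Cyp2d22, at opposite ends of the cluster, rose. Cyp2d26 had 105, 125 and 176 CPM in cisplatin kidneys, against 61.5, 78.6 and 72.0 CPM in control kidneys. Every cisplatin library was above every control library (log2 fold change 0.93, SE 0.170, adjusted p = 0.00115). Cyp2d22 had 29.7, 31.2 and 28.1 CPM in cisplatin kidneys, against 8.45, 9.06 and 8.85 CPM in control kidneys. With little spread in either group, its log2 fold change was 1.76 (SE 0.0937, adjusted p = 2.5e-07), or 3.38-fold. The coding sequences of Cyp2d12 and Cyp2d9 are 92.1% identical, those of Cyp2d22 and Cyp2d26 78.1%, and those of Cyp2d12 and Cyp2d22 77.3%. Of the 150-base windows of the Cyp2d9 transcript, 1.54% also occur in Cyp2d10 or Cyp2d12, and of those of Cyp2d12, 0.581% occur in Cyp2d9.

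On chromosome 7, 13 genes of the Cyp2a, Cyp2b, Cyp2f, Cyp2g, Cyp2s and Cyp2t subfamilies lie between 25501895 and 26858093. Of the 5 that were tested, 3 fell, 1 rose and Cyp2a5 was called in neither direction. Cyp2a4, a testosterone hydroxylase, had 29.4, 45.4 and 46.8 CPM in cisplatin kidneys, against 333, 436 and 365 CPM in control kidneys. The groups were far apart, and the log2 fold change was -3.22 (SE 0.181, adjusted p = 3.7e-07), or 9.33-fold lower. Cyp2a5, a coumarin hydroxylase, had 123, 116 and 146 CPM in cisplatin kidneys, against 106, 115 and 138 CPM in control kidneys. The groups overlapped, and the log2 fold change was 0.10 (SE 0.122, adjusted p = 0.510).

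Cyp2a4 and Cyp2a5 have coding sequences of 1482 bases each that are 98.4% identical, and their promoter windows are 91.9% identical. The promoter windows begin at different points of the shared sequence, and their unpaired ends count as differences. The promoter value thus understates how alike the shared bases are. The promoters are shown because genes so alike in sequence differed in the comparison, and capitals mark the C/EBP core TTGCNNAA or its reverse complement, found in 10.7% of all promoters. The windows are chr7:26006344-26006643 for Cyp2a4 and chr7:26534480-26534779 for Cyp2a5, both on the plus strand of GRCm39.
Cyp2a4: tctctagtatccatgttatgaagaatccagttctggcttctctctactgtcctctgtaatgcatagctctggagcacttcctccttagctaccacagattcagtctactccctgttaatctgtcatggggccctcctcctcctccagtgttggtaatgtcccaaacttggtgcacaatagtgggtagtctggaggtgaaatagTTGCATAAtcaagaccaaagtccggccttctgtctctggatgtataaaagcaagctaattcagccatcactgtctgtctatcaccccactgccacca
Cyp2a5: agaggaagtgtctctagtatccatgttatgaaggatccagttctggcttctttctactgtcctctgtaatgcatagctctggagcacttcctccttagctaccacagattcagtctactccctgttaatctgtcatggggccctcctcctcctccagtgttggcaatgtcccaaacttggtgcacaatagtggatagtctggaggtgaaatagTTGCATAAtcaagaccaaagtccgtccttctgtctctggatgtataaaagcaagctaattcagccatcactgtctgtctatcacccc
Both hold the C/EBP core. Of the 150-base windows of the Cyp2a4 transcript, 4.22% also occur in Cyp2a5, and of those of Cyp2a5, 5.74% occur in Cyp2a4 or in the pseudogene Cyp2a21-ps. Read pairs that match both genes along both reads have no single place in the genome and were not counted. A pair with 1 read in such a stretch can still be placed by its other read, so these shares do not say how many pairs were lost. A read pair of 1 gene that carries a sequence error can be placed in the other. How far the split of counts between Cyp2a4 and Cyp2a5 is affected was not tested.

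Cyp2b10, the best known target gene of the nuclear receptor Car (Nr1i3) in liver, had 1, 3 and 1 counts in cisplatin libraries, against 59, 12 and 34 counts in control libraries. The summed counts of 5 in cisplatin libraries and 105 in control libraries gave a ratio of 0.0379 (95% exact interval 0.0121 to 0.0913, counting error only), and the fitted log2 fold change was -4.59 (SE 0.668, adjusted p = 0.000255). Without the second cisplatin library the fitted value was -5.18, a fold more than 1.5 times as large. Cyp2b10 passed the filter only through the control libraries. Cyp2f2, known from airway epithelium, where it activates naphthalene, was at a low level of 0.654, 0.369 and 0.523 CPM in cisplatin kidneys, against 1.05, 1.12 and 1.11 CPM in control kidneys. Its groups did not overlap (log2 fold change -1.08, SE 0.280, adjusted p = 0.00896), and the call was lost under scaling by library totals (adjusted p = 0.0778). Cyp2s1, an extrahepatic P450 of epithelia, had 16.9, 20.6 and 10.4 CPM in cisplatin kidneys, against 4.37, 4.92 and 5.19 CPM in control kidneys. Cyp2s1 rose, with a log2 fold change of 1.73 (SE 0.221, adjusted p = 0.000103) and no overlap.

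In the Cyp2c and Cyp3a subfamilies, which are abundant in liver, few genes had enough counts to be tested. Of 15 Cyp2c genes 2 were tested and both rose, and of 9 Cyp3a genes Cyp3a13 alone was tested. Cyp2c68 and Cyp3a13 passed the filter only through the cisplatin libraries, so that a difference was built into how they were kept. Cyp2c23, an arachidonic acid epoxygenase of the kidney that lies apart from the other Cyp2c genes on chromosome 19, had 12.4, 17.1 and 19.6 CPM in cisplatin kidneys, against 9.29, 10.1 and 10.5 CPM in control kidneys. The groups did not overlap (log2 fold change 0.71, SE 0.156, adjusted p = 0.00356). Cyp2c68 had 25, 32 and 35 counts in cisplatin libraries, against 7, 7 and 5 counts in control libraries. Its log2 fold change was 1.94 (SE 0.343, adjusted p = 0.000905), and 8.53% of its 150-base windows also occur in Cyp2c40, which had 0 counts. Cyp3a13, the main Cyp3a gene of the mouse intestine, had 14, 22 and 9 counts in cisplatin libraries, against 4, 4 and 0 counts in control libraries. These few counts gave a log2 fold change of 2.11 (SE 0.589, adjusted p = 0.0131), and the summed counts a ratio of 4.48 (95% exact interval 2.09 to 11.0, counting error only).

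The family 1 genes are classic targets of the aryl hydrocarbon receptor (Ahr) and act on polycyclic aromatic compounds and oestrogens. Cyp1b1, which is known from mesenchymal cells as well as epithelia, had 98.3, 76.0 and 69.8 CPM in cisplatin kidneys, against 39.6, 33.9 and 32.9 CPM in control kidneys. Every cisplatin library was above every control library, and Cyp1b1 rose with a log2 fold change of 1.20 (SE 0.132, adjusted p = 3.9e-05). It supplied 7.11% of the summed P450 level in cisplatin kidneys and 0.883% in control kidneys. Of 7 fibroblast and pericyte markers, 6 rose, and their summed level was 402 to 668 CPM in cisplatin kidneys and 204 to 252 CPM in control kidneys. Of 8 macrophage markers, 7 rose (161 to 191 CPM in cisplatin kidneys and 72.8 to 84.3 CPM in control kidneys). Itgam, among them, had 6, 1 and 4 counts in control libraries and passed the filter on low counts only through the cisplatin libraries. Of 8 endothelial markers 4 fell (259 to 317 CPM in cisplatin kidneys and 358 to 367 CPM in control kidneys). The part of these cells in the Cyp1b1 level was not tested. Cyp1a1 was at 6 to 12 counts in cisplatin libraries and 7 to 17 counts in control libraries, with overlap (log2 fold change -0.51, SE 0.402, adjusted p = 0.316). Cyp1a2, the liver enzyme of caffeine oxidation, had 0 counts in all 6 libraries.

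Among the enzymes of oxysterols and bile acids, 2 of the 4 tested genes fell. Cyp7b1, which hydroxylates oxysterols and steroids such as dehydroepiandrosterone, had 9.92, 10.9 and 13.4 CPM in cisplatin kidneys, against 182, 211 and 229 CPM in control kidneys. The groups were far apart, and with a log2 fold change of -4.18 (SE 0.141, adjusted p = 1.8e-08) Cyp7b1 was 18.2-fold lower. Cyp27a1, the mitochondrial sterol side-chain hydroxylase, had 18.5, 17.8 and 18.3 CPM in cisplatin kidneys, against 23.2, 25.6 and 27.3 CPM in control kidneys. Its groups did not overlap (log2 fold change -0.48, SE 0.0923, adjusted p = 0.00164), but with library totals the value was -0.05 (adjusted p = 0.703). Cyp39a1, an oxysterol hydroxylase, had 5.10, 5.36 and 4.67 CPM in cisplatin kidneys, against 3.83, 5.41 and 4.33 CPM in control kidneys, with overlap (log2 fold change 0.16, SE 0.156, adjusted p = 0.405). Cyp46a1, the cholesterol hydroxylase of neurons, had 8 to 11 counts in cisplatin libraries and 6 to 13 counts in control libraries, also with overlap (log2 fold change -0.33, SE 0.368, adjusted p = 0.488). Cyp8b1, the sterol hydroxylase that sets the make-up of bile acids in liver, had 0 counts in cisplatin libraries and 1, 2 and 2 counts in control libraries, and Cyp7a1, the rate-limiting enzyme of bile acid synthesis, had 0 counts in all 6 libraries.

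Of the Cyp26 enzymes, which break down retinoic acid, 2 were tested. Cyp26b1 had 135, 235 and 194 counts in cisplatin libraries, against 238, 328 and 206 counts in control libraries. Scaled to the library, these were 4.65 to 8.46 CPM in cisplatin kidneys and 9.91 to 16.0 CPM in control kidneys, and the groups did not overlap (log2 fold change -0.78, SE 0.237, adjusted p = 0.0201), but the call was lost without the second control library (log2 fold change -0.52, adjusted p = 0.0946) and with library totals (-0.36, adjusted p = 0.196). Cyp26a1 had 20, 23 and 19 counts in cisplatin libraries, against 7, 0 and 5 counts in control libraries. It rose from this low level with a log2 fold change of 2.02 (SE 0.524, adjusted p = 0.00896), and the ratio of the summed counts was 4.11 (95% exact interval 2.20 to 8.39, counting error only). Cyp26a1 passed the filter only through the cisplatin libraries, and the difference between it and Cyp26b1 was not tested. Cyp26c1 had 1 to 5 counts in cisplatin libraries and 1 to 4 counts in control libraries and was not tested.

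Cyp20a1, whose substrate is not settled, had 21.4, 24.2 and 24.1 CPM in cisplatin kidneys, against 14.6, 14.5 and 14.7 CPM in control kidneys. Its groups were well separated (log2 fold change 0.67, SE 0.0921, adjusted p = 0.000177). Cyp2r1, a vitamin D hydroxylase best known from liver, had 1.07, 1.14 and 1.13 CPM in cisplatin kidneys, against 1.47, 1.61 and 1.73 CPM in control kidneys. The groups did not overlap, yet the test missed the threshold (log2 fold change -0.52, SE 0.202, adjusted p = 0.0537), which was passed with DESeq2 size factors (adjusted p = 0.0447). Cyp2u1, which hydroxylates long-chain fatty acids, had 8.23, 8.65 and 7.37 CPM in cisplatin kidneys, against 8.74, 8.33 and 9.38 CPM in control kidneys, with overlap (log2 fold change -0.12, SE 0.115, adjusted p = 0.401).

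**Figure D4:**
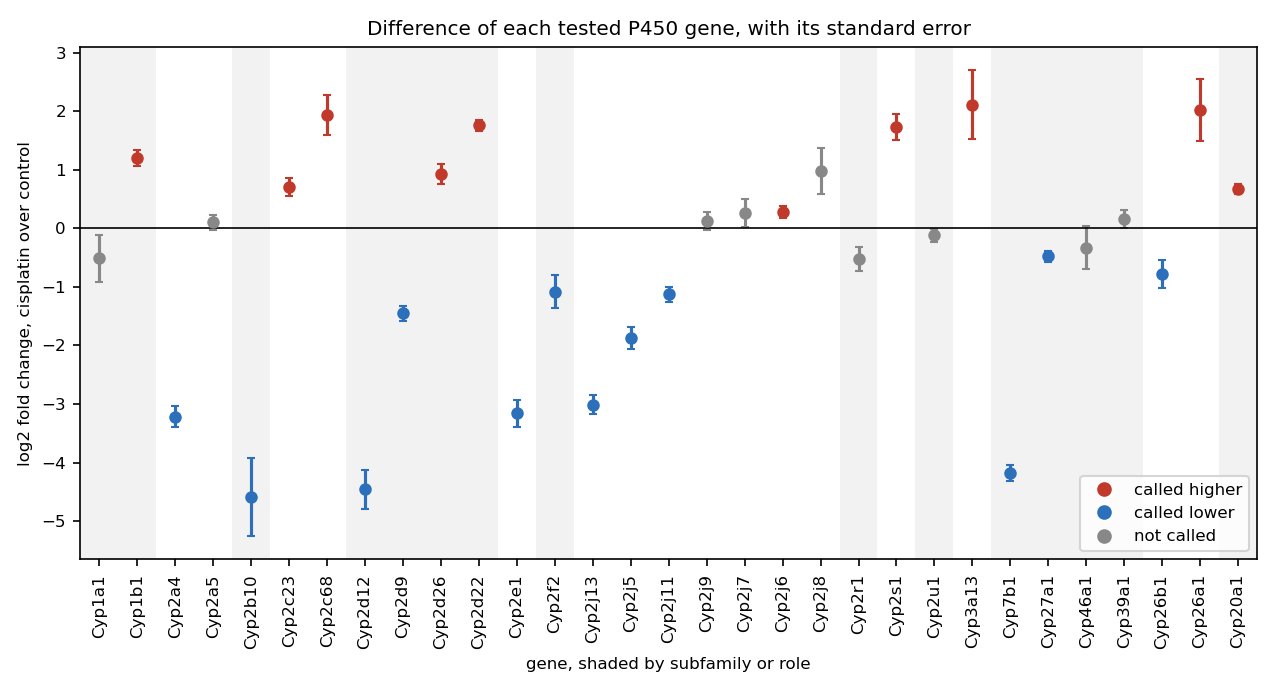
Log2 fold change of cisplatin over control (vertical axis, bars are standard errors) of the 31 tested P450 genes, grouped along the horizontal axis by subfamily or role and coloured by call. The values run from -4.59 (Cyp2b10) to 2.11 (Cyp3a13), and subfamilies Cyp2d and Cyp2j and the retinoic acid enzymes hold genes called in both directions. Cyp2b10, Cyp3a13 and Cyp26a1 passed the filter on low counts only through the group in which they were higher.

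The other 46 genes were too low to be tested. Of these, 24 had 0 counts in all 6 libraries, which allows up to 3 counts per library, or 0.101 to 0.131 CPM in cisplatin libraries and 0.126 to 0.146 CPM in control libraries. The 22 others reached at most 10 counts in any library. The steroid hormone enzymes were among them: Cyp17a1, which makes androgen precursors in gonads and adrenal gland, had 8, 10 and 8 counts in cisplatin libraries, against 3, 0 and 2 counts in control libraries, and Cyp11a1, Cyp11b1 and Cyp21a1 had at most 1 count in any library. Cyp11b2 (aldosterone synthase) and Cyp19a1 (aromatase) had 0 counts. Genes known for high levels in liver were as low, with Cyp3a11 at 0 counts in each cisplatin library, against 3, 1 and 0 counts in control libraries, and Cyp2c29 at 0 counts in 5 of 6 libraries. Cyp2c69 had 7, 8 and 7 counts in cisplatin libraries, against 8, 3 and 5 counts in control libraries. Of the 10 liver markers 6 were tested, of which 4 fell and 1 rose (summed level 25.3 to 32.0 CPM in cisplatin kidneys and 243 to 288 CPM in control kidneys), and Ahsg, Tat and Cps1 had at most 3 counts in any library. Most of that sum came from Ttr alone, at 19.5, 22.8 and 24.5 CPM in cisplatin kidneys, against 267, 227 and 270 CPM in control kidneys. Apoh, among those that fell, had 9, 5 and 7 counts in cisplatin libraries and passed the filter only through the control libraries. Of 8 adrenal markers 2 were tested and neither passed (1.83 to 2.62 CPM in cisplatin kidneys and 2.56 to 3.60 CPM in control kidneys), and Nr5a1, Th and Dbh had 0 counts. Of 6 fat markers 4 were tested, of which Fabp4 alone passed, and fell (11.6 to 18.9 CPM in cisplatin kidneys and 27.1 to 36.3 CPM in control kidneys for the list).

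The other motifs were searched on both strands of the same 300-base promoters. The xenobiotic response element core GCGTG, to which Ahr binds, was in 3 of 12 promoters of genes that fell, in 4 of 10 of genes that rose and in 4 of 9 of the others, where 37.0% of all promoters hold it. It was present in Cyp1b1, which rose, and in Cyp1a1, which was called in neither direction. The C/EBP core was in 2 of 12 (Cyp2a4 and Cyp2b10), in 1 of 10 (Cyp20a1) and in 2 of 9 (Cyp2a5 and Cyp2j8). The antioxidant response element core TGACNNNGC was found only in Cyp2j13 (12.5% of all promoters), the STAT5 core TTCNNNGAA only in Cyp39a1 (8.81%) and the HNF4 element CAAAGTCCA only in Cyp2c68 (0.450%).

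Of 11 genes for redox partners of P450 enzymes, 9 were tested, 5 fell, 0 rose and 4 were called in neither direction, with a median log2 fold change of -0.40. Cyb5a, the microsomal cytochrome b5, had 185, 196 and 264 CPM in cisplatin kidneys, against 590, 511 and 569 CPM in control kidneys (log2 fold change -1.37, SE 0.139, adjusted p = 2.1e-05). Fdx1, the ferredoxin of mitochondrial P450 enzymes, fell by 0.96 on the log2 scale (SE 0.112, adjusted p = 5.7e-05), and the changes of Cyb5r1 (-0.58, adjusted p = 0.00132) and Cyb5b (-0.37, adjusted p = 0.0111) were smaller. Fdxr, the reductase that supplies Fdx1, did not pass the test (log2 fold change -0.40, SE 0.202, adjusted p = 0.127). Por, the reductase on which microsomal P450 enzymes depend, had 73.9, 85.8 and 55.6 CPM in cisplatin kidneys, against 97.7, 107 and 87.7 CPM in control kidneys. The groups did not overlap (log2 fold change -0.44, SE 0.144, adjusted p = 0.0274). In heme synthesis and breakdown, 6 of 12 genes fell and 0 rose (median -0.26). The largest falls were those of Uros (log2 fold change -1.65, adjusted p = 4.0e-06) and Cpox (-1.48, adjusted p = 1.6e-06), both enzymes of the synthesis pathway, followed by Fech (-0.51, adjusted p = 0.000366), which inserts the iron, and Alad (-0.32, adjusted p = 0.0233). Alas1, the rate-limiting enzyme, had 69.1, 82.9 and 84.0 CPM in cisplatin kidneys, against 82.0, 52.7 and 70.2 CPM in control kidneys, with overlap (log2 fold change 0.20, SE 0.146, adjusted p = 0.276).

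Of 15 transcription factors and receptors known to control P450 genes, 14 were tested, 4 rose and 5 fell. Those that rose were Nfe2l2, the activator of antioxidant genes (log2 fold change 0.61, adjusted p = 0.000285), Nr1i2, the pregnane X receptor (0.94, adjusted p = 0.000372), Ahr (0.70, adjusted p = 0.00149) and Cebpb (0.72, adjusted p = 0.00184). Among those that fell were Nr1h3, the oxysterol receptor LXRα (-1.11, adjusted p = 6.5e-06), Hnf4a (-0.59, adjusted p = 0.000662) and the Ahr repressor Ahrr (-1.17, adjusted p = 0.0209). Ahrr had 9, 7 and 4 counts in cisplatin libraries, against 12, 10 and 14 counts in control libraries. It reached the minimum count of 10 only in the control libraries, so that a difference was built into how it was kept. Nr1i3, the receptor for which Cyp2b10 is a target in liver, had 9, 10 and 5 counts in cisplatin libraries, against 1, 2 and 1 counts in control libraries, and was not tested.

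All 6 genes of a list with higher levels in male than in female mouse kidney fell, with a median log2 fold change of -5.86 and a summed level of 319 to 606 CPM in cisplatin kidneys and 24004 to 25305 CPM in control kidneys. Kap, the androgen-regulated kidney protein, had 265, 164 and 412 CPM in cisplatin kidneys, against 21274, 20737 and 21611 CPM in control kidneys. The groups differed by a wide margin (log2 fold change -6.24, SE 0.332, adjusted p = 2.5e-07). Of 7 receptors and mediators of sex-biased expression, 5 fell and 1 rose. Ghr, the growth hormone receptor, fell by 1.47 on the log2 scale (adjusted p = 3.0e-06), and Prlr, the prolactin receptor, rose (2.91, adjusted p = 1.1e-05). The part of these in the lower Cyp2e1, Cyp2j13 and Cyp7b1 levels was not tested.

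Of 9 epoxide hydrolases and flavin monooxygenases, 6 were tested, 4 fell and 1 rose. Ephx1, the microsomal epoxide hydrolase, had 145, 199 and 133 CPM in cisplatin kidneys, against 20.6, 20.3 and 19.9 CPM in control kidneys (log2 fold change 2.97, SE 0.147, adjusted p = 1.6e-07). Ephx2, the soluble hydrolase that breaks down arachidonic acid epoxides, had 121, 125 and 154 CPM in cisplatin kidneys, against 443, 430 and 438 CPM in control kidneys (log2 fold change -1.71, SE 0.112, adjusted p = 1.0e-06). These epoxide hydrolases thus changed in opposite directions, with no overlap of the groups in either. The flavin monooxygenases Fmo5 (-3.05, adjusted p = 8.1e-07), Fmo1 (-0.94, adjusted p = 2.6e-05) and Fmo2 (-0.81, adjusted p = 7.4e-05) fell. Of the P450 genes whose symbols have another form, Cyp51, an enzyme of cholesterol synthesis, fell by 2.09 on the log2 scale (adjusted p = 2.3e-06), Tbxas1, thromboxane synthase, fell by 0.87 (adjusted p = 0.000625) and Ptgis, prostacyclin synthase, rose (0.62, adjusted p = 0.0141).

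The libraries of the cisplatin group did not contribute alike. Among the 12 genes that fell, the third cisplatin library was the nearest to the control mean in 9, and among all 3578 genes called lower it was the nearest in 57.7%. Among the 10 P450 genes that rose, the first cisplatin library was nearest in 6 and the third in 4, and among all 3841 genes called higher these libraries were nearest in 24.8% and 49.9%. Without the third cisplatin library, 9 P450 genes were called higher and 12 lower.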

How the data were processed

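Total RNA of 3 cisplatin and 3 control kidneys was sequenced as read pairs. The authors trimmed them with Cutadapt, aligned them to mm39 (GRCm39) with STAR and deposited raw counts of uniquely mapped pairs per gene, without normalization. The settings of STAR and its annotation were not given in the sources used here. Pairs mapped to several places, 11.5% to 12.9% of all, are not in these counts. Pairs in no annotated gene on the transcript strand made up 9.32%, 6.63% and 6.09% of all pairs in the cisplatin libraries, against 4.63% to 4.86% in the control libraries. Counts of the transcript strand were used, and genes were placed with GENCODE vM39.

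Genes that passed filterByExpr of edgeR 4.0.16 (minimum count 10, minimum total 15) were tested with its two-sided quasi-likelihood F test on TMM factors, cisplatin against control, with Benjamini-Hochberg adjustment over 15662 genes at 0.05. SE is the size of the log2 fold change over the root of F. CPM use library size times TMM factor, and CPM per kb the canonical transcript. The alternatives were the tests of DESeq2 1.42.0 and limma-voom (limma 3.58.1), scaling by DESeq2 size factors, by upper quartiles or by library totals, other filters (none, or 10 counts everywhere), unstranded counts, a replicate block, leaving out each library, an adjusted p under 0.01 and a fold change over 1.5. Those of the summed level were added after seeing the data. Exact binomial intervals and the floor of 3 counts cover counting error only. Promoters are GRCm39 sequence, and identities come from global alignments (Biopython 1.88) in which gaps, also those at the ends, count as differences.

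Every tested member is named, with values in each library for the 10 largest rises and falls among called members, the 8 most abundant, and Cyp1b1, Cyp2r1, Cyp2u1, Cyp20a1, Cyp26b1, Cyp27a1 and Cyp39a1. From each list up to 4 genes per direction with the smallest adjusted p are named. Alas1, Por, Fdxr, Nr1i3 and the untested genes were named after their values were seen. The members, lists and motifs were chosen with earlier results of these data known. Some items of these lists are not reported here, and small RNA and chimeric eCLIP data were not analysed here. R 4.3.3 and Python 3.11.15 were used.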

Additional observations from a re-analysis of the deposited data

How the results depend on the processing

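The alternatives fitted gene by gene were the tests, scalings, filters, strand, block and libraries left out. Of the 22 P450 genes called, 18 kept their direction and call in every such alternative in which they were tested, and 0 reversed. Among these 18, Cyp2b10, Cyp26a1 and Cyp2c68 were tested in 14 of the 15 alternatives and Cyp3a13 in 12, because their counts fell below the filter in the others. Cyp2j6, Cyp26b1, Cyp27a1 and Cyp2f2 lost the call in at least 1. Of 454 alternatives of single genes, 431 left direction and call as they were, 12 lost and 8 gained a call and 3 reversed the sign of a gene that was not called: Cyp2u1 to 0.31 and Cyp46a1 to 0.10 with library totals, and Cyp2a5, whose values without 1 library ran between -0.03 and 0.21. A test against a fold change over 1.5 called 5 P450 genes higher and 9 lower, and 1396 of all genes higher and 1114 lower. At an adjusted p under 0.01, 8 P450 genes were called higher and 11 lower. Library totals shifted the median log2 fold change of all genes to 0.48, called 8508 genes higher and 1375 lower, gave a split of 15 P450 genes higher to 9 lower and moved the ratio of the summed P450 levels to 0.394. The median log2 fold change of the tested P450 genes moved to 0.31 with library totals, 0.13 with no filter, -0.04 with upper-quartile factors, -0.27 with at least 10 counts in every library and -0.48 with unstranded counts, and it was -0.36 without the second cisplatin library and -0.02 without the second control library. The genes covered were 53 with no filter, 24 with at least 10 counts in every library and 29 with unstranded counts. Without the second cisplatin library they were 29, and in the other settings named here 31. A shift of the median can thus come from a change in the genes covered. The summed ratio was 0.262 to 0.317 without 1 library. Leaving out each library in turn gave 8 to 10 P450 genes higher and 11 to 12 lower.

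Of the 31 tested genes, 24 had at least 10 counts in every library, and 7 of these were then called higher and 12 lower. The 46 genes below the filter have no test, and their low counts do not show that they did not differ.

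The labels do not say whether samples with the same replicate number were paired. Deviations of the libraries with the same number correlated at 0.133, 0.142 and 0.0997, and those with different numbers at -0.126 to -0.0259. Each cisplatin library thus correlated best with the control library of its own number. Whether the samples were paired by number was not tested. With the replicate block, 10 P450 genes were called higher and 12 lower, as without it, and 4087 of all genes were called higher and 3796 lower.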
